A study of Cyprinus carpio with 6 samples.

Results

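Cytochrome P450 family 1 (CYP1) genes encode haem monooxygenases of the endoplasmic reticulum that oxidise polycyclic aromatic compounds, some steroids and retinoids. They are the best known targets of the aryl hydrocarbon receptor (AhR), a ligand-activated transcription factor that waits in the cytoplasm with the chaperone HSP90 and its co-chaperone p23, enters the nucleus when bound by a ligand, pairs there with ARNT, and is opposed by the AhR repressor. CYP1A is widely used in fish as a marker of exposure to AhR ligands, and in fish brain it is known from the walls of blood vessels, while CYP1B1 is known for its activity outside the liver.

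The CYP1 genes were taken as every row of the deposited gene table whose description names cytochrome P450 1A, 1B or 1C. This gave 6 of 53152 genes, of which 2 are described as CYP1A1-like, 4 as CYP1B1 or CYP1B1-like and 0 as CYP1C. The family was chosen by its lead-against-control counts, which were already known, so these values are given as a description without a test. Poly(A) RNA was sequenced from the brain of common carp, Cyprinus carpio, in 3 libraries from fish whose agent was lead and 3 from fish with no agent (control). The labels give no dose, duration, age, sex or strain and do not say whether a library came from 1 fish or from a pool, so p-values measure only the spread between these libraries, which may be technical; the extraction text mentions an adipose type where the tissue label says brain. Total counts over all genes ran from 27841520 to 34848243 a library. Marker genes of neurons, astroglia and oligodendrocytes were abundant in every library, with summed levels of 4199 to 4697 TMM-scaled CPM (counts scaled to a common library size and adjusted for composition) for 39 neuronal genes in lead and 4300 to 5308 in control brains.

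The 2 CYP1A copies averaged 23.5 and 17.8 CPM in lead brains, with a wide spread among the lead libraries, and had at most 28 counts a library in control brains. The CYP1B copies differed in direction: LOC109100558 was higher and LOC109100547 lower in every lead library than in any control library. Of the other CYP1B copies, LOC109078707 had no count in lead brains, and LOC109080304 had levels that overlapped between the groups.

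CYP1A is the subfamily that in fish responds most to AhR ligands. LOC109046471 had 5.89, 43.1 and 21.4 TMM-scaled CPM in lead replicates 1, 2 and 3, against 0.442, 0.614 and 0.850 CPM in control replicates 1, 2 and 3. Each lead library stood above each control library, and lead replicate 1 was the lowest of the lead libraries. Its means were 23.5 ± 18.7 CPM in lead and 0.635 ± 0.205 CPM in control brains (SD, n = 3 each). The log2 fold change was 5.20 (SE 0.80).

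The other CYP1A copy, LOC109046459, had 0, 1036 and 461 counts in lead replicates 1, 2 and 3, which are 0, 39.3 and 14.1 CPM, against 6, 4 and 0 counts in control replicates 1, 2 and 3. It was thus high in lead replicates 2 and 3, and at 0 in lead replicate 1 as well as in control replicate 3, so the groups overlapped. Its means were 17.8 ± 19.9 CPM in lead and 0.0961 ± 0.0860 CPM in control brains (SD, n = 3 each), where the control mean rests on 10 counts in all. The sources used here do not say how reads that match more than one copy were assigned, so the division of counts between the copies is less certain than their sum. LOC109046459 is also the CYP1 copy whose ID is absent from RefSeq's carp gene table, which holds 34840 of the 53152 gene IDs.

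Both CYP1A copies together reached 5.89, 82.5 and 35.5 CPM in lead replicates 1, 2 and 3, against 0.607, 0.736 and 0.850 CPM in the control replicates. The mean of the sum was 56.5 times higher in lead than in control brains, and 8.06 times higher for lead replicate 1 alone. It was 80.7 times higher without lead replicate 1 and 28.3 times higher without lead replicate 2. The smallest lead value, 5.89 CPM, stood above the largest control value, 0.850 CPM. The sum in lead replicate 2 was 14.0 times that in lead replicate 1, so the lead libraries differed more among themselves than lead replicate 1 differed from the controls.

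**Figure D1:**
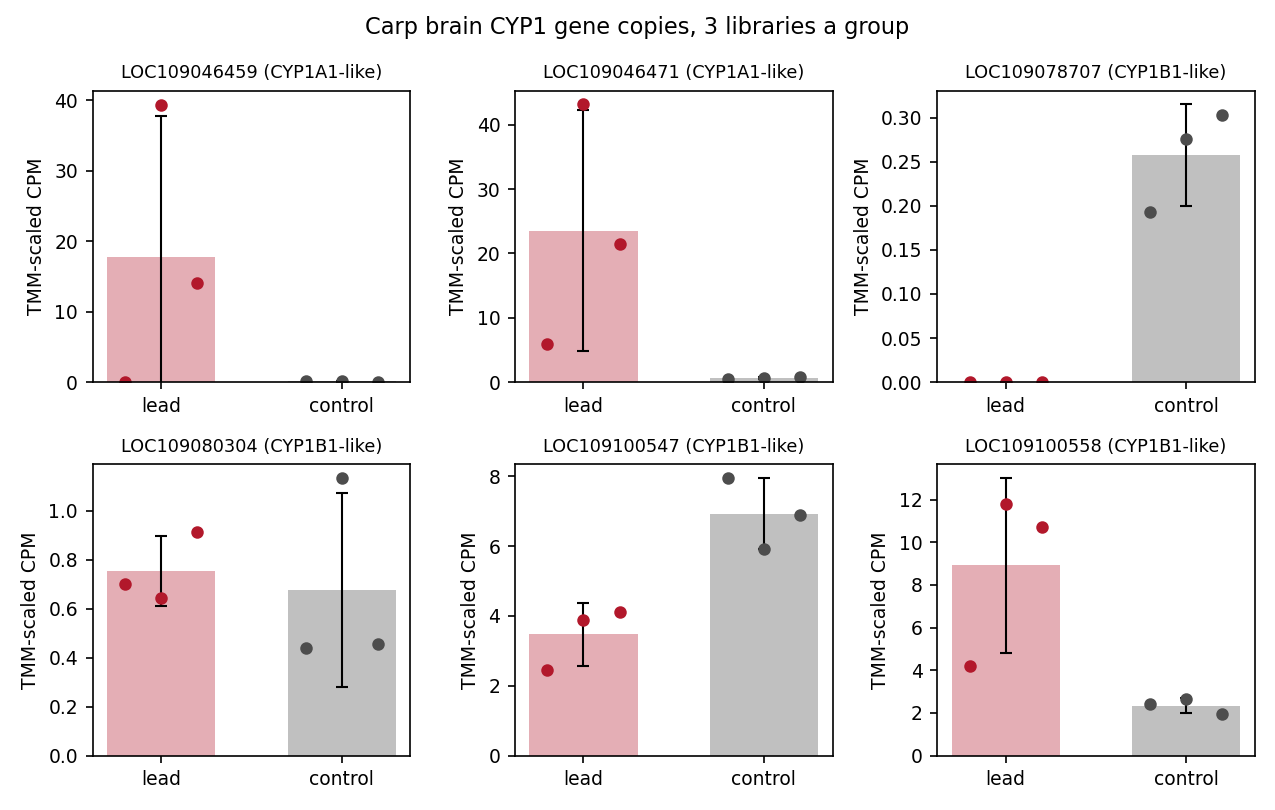
TMM-scaled CPM of the 6 CYP1 copies, with a panel for each copy, points for libraries in replicate order, bars for the mean of 3 and lines for 1 SD (clipped at 0); the vertical scale differs between panels. LOC109046471 lies at 5.89 to 43.1 CPM in lead and 0.442 to 0.850 CPM in control brains, while LOC109100547 lies lower in lead than in control brains.

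The share of CYP1A counts that fell on LOC109046459 also varied among lead libraries. It was 47.7% of 2172 counts in lead replicate 2 (exact 95% binomial interval 45.6% to 49.8%) and 39.6% of 1164 in lead replicate 3 (36.8% to 42.5%). In lead replicate 1 it was 0 of 176 counts, which allows a share of up to 1.70% by a limit of 3 counts and 2.07% by the exact interval. Control libraries held only 22, 24 and 28 CYP1A counts, of which 6, 4 and 0 fell on LOC109046459. These intervals and limits cover counting error only. Lead replicate 1 therefore differed from the other lead libraries in the division between copies as well as in the sum, while in control replicate 3 the share of 0 was limited only to 10.7% by 3 counts and 12.3% by the exact interval.

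CYP1B1 metabolises steroids, retinoids and polycyclic aromatics and in mammals is expressed in many tissues without an inducer. LOC109100547 was the most abundant CYP1 gene of control brains. It had 2.44, 3.87 and 4.12 CPM in lead replicates 1, 2 and 3, against 7.95, 5.92 and 6.89 CPM in control replicates 1, 2 and 3. Each lead library stood below each control library, with means of 3.48 ± 0.905 CPM in lead and 6.92 ± 1.02 CPM in control brains (SD, n = 3 each). The log2 fold change was -0.99 (SE 0.30).

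LOC109100558, annotated as a low-quality CYP1B1-like protein, lay on the same sequence 469792 bases away and went the other way. It had 4.22, 11.8 and 10.7 CPM in lead replicates 1, 2 and 3, against 2.43, 2.64 and 1.94 CPM in control replicates 1, 2 and 3. Its means were 8.91 ± 4.10 CPM in lead and 2.34 ± 0.358 CPM in control brains (SD, n = 3 each), and the log2 fold change was 1.93 (SE 0.42). As with the CYP1A copy LOC109046471, lead replicate 1 was the lowest lead library and still stood above every control library.

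The remaining CYP1B copies were rare. LOC109078707 had 0 counts in each lead library, against 7, 9 and 10 counts in control replicates 1, 2 and 3. Its control mean, which rests on 26 counts, was 7.64 times the level that a floor of 3 counts over the lead group would give. This floor covers counting error in the lead libraries only. LOC109080304 had 21, 17 and 30 counts in lead replicates 1, 2 and 3, against 16, 37 and 15 counts in control replicates 1, 2 and 3. Its means of 0.755 ± 0.142 CPM in lead and 0.677 ± 0.397 CPM in control brains (SD, n = 3 each) differed by less than the spread between replicates.

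Summed over the 4 copies, CYP1B reached 7.36, 16.3 and 15.7 CPM in lead replicates 1, 2 and 3, against 11.0, 9.97 and 9.59 CPM in the control replicates. The groups overlapped, because lead replicate 1 was below and the other lead libraries above all controls. The balance between copies nevertheless separated the groups. As with CYP1A, the assignment of reads that match more than 1 copy is not stated. The division between the CYP1B copies is therefore less certain than their sum. LOC109100558 took 57.3%, 72.3% and 68.0% of CYP1B counts in lead replicates 1, 2 and 3, against 22.1%, 26.5% and 20.3% in control replicates 1, 2 and 3. LOC109100547 took 33.2%, 23.7% and 26.2% in the lead replicates, against 72.2%, 59.4% and 71.8% in the control replicates. The copy that leads CYP1B in each group was thus the same in all 3 of its libraries.

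**Figure D2:**
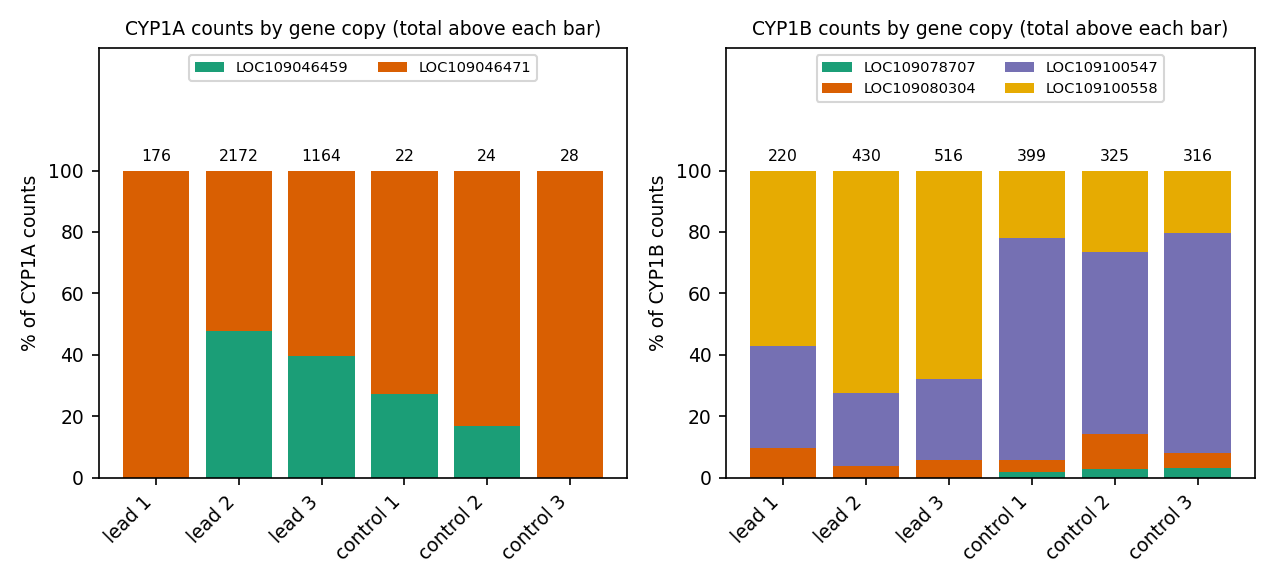
Percentage of CYP1A counts (left) and CYP1B counts (right) that fell on each gene copy in each library, with the total count above the bar. LOC109100558 takes 57.3% to 72.3% of CYP1B counts in lead and 20.3% to 26.5% in control brains.

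Across the family, 2 of 6 copies had all lead libraries above all control libraries and 2 had all below. Among genes with a count in at least 1 library, 8.41% lay wholly above and 10.8% wholly below in lead brains. Nothing is read from these counts, since the copies were chosen with the contrast known. Only 3 of the 6 copies reached an FPKM (fragments scaled to transcript length and library size) of 1 in 3 libraries, the filter of the fit across all genes, and LOC109046471 and LOC109100558 did so only through the lead libraries. Of the 32149 genes tested, 0.0591% passed an adjusted p of 0.05 in edgeR's quasi-likelihood test, 0.0467% higher and 0.0124% lower in lead brains.

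Set side by side per length, the order of the copies differed between the groups. In lead brains the mean FPKM was 8.20 ± 6.40 for LOC109046471, 6.42 ± 7.06 for LOC109046459, 2.54 ± 1.18 for LOC109100558 and 1.59 ± 0.444 for LOC109100547 (SD, n = 3 each). In control brains it was 3.41 ± 0.558 for LOC109100547, 0.707 ± 0.0944 for LOC109100558, 0.235 ± 0.0851 for LOC109046471 and 0.0349 ± 0.0314 for LOC109046459 (SD, n = 3 each). LOC109100547 thus had the highest FPKM in every control library, and LOC109046471 in every lead library. CYP1A made up 44.4%, 83.5% and 69.3% of CYP1 CPM in lead replicates 1, 2 and 3, against 5.23%, 6.88% and 8.14% in control replicates 1, 2 and 3, so CYP1B was the larger part in lead replicate 1 as in the controls.

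Not all neighbours in these orders were separated. In control brains LOC109046471, LOC109080304 and LOC109078707 had mean FPKM of 0.235, 0.224 and 0.172, and each exceeded the next in 2 of 3 libraries. In lead brains LOC109046459 exceeded LOC109100558 in 2 of 3 libraries, while LOC109046471 exceeded LOC109046459 in all 3.

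**Figure D3:**
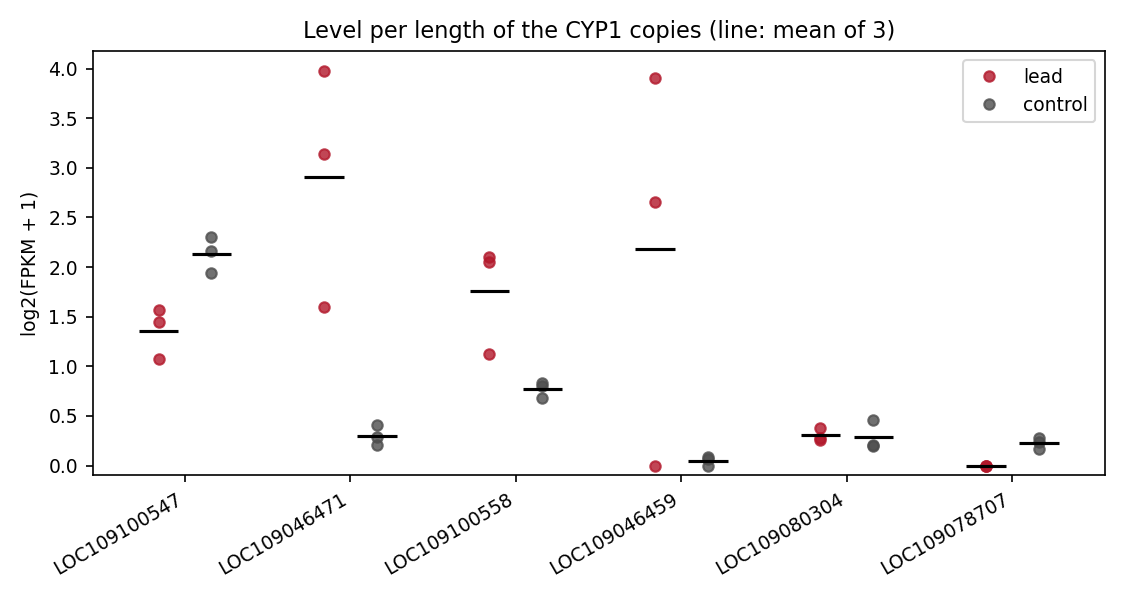
Level per length, as log2(FPKM + 1), of the 6 CYP1 copies, with points for the libraries of lead (left of each pair) and control brains (right) and a line for the mean of 3. LOC109100547 has the highest control points, with a mean FPKM of 3.41, and LOC109046471 the highest lead points, with a mean FPKM of 8.20.

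In the genome the copies formed 2 pairs and 2 singletons, as the table gives positions; the assembly is not named there. LOC109046459 (NC_031739.1, 2350189 to 2354074, minus strand) and LOC109046471 (2593021 to 2597376, minus strand) lay 238946 bases apart with other genes between them. LOC109100547 (NC_031721.1, 3498905 to 3501842, plus strand) and LOC109100558 (3971635 to 3975821, plus strand) were each followed by a copy of regulator of microtubule dynamics protein 2, the gene that flanks CYP1B1 in mammals too. LOC109046459 lay 34688 bases from the kinase gene csk, which neighbours CYP1A genes in mammals. LOC109078707 (NW_017541817.1, 171707 to 173316) and LOC109080304 (NW_017542224.1, 11482 to 14729) were on short unplaced sequences with 8 genes and 1 gene. None of the 6 copies overlapped another gene of the table.

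Up to 3 genes on each side of each copy gave 29 neighbours, of which 22 were tested and 0 called by edgeR (smallest adjusted p = 0.209). Of all genes tested, edgeR called 0.0591%. At an unadjusted p under 0.05, 2 of the 22 were lower and none higher, where 8.77% of all genes were lower and 7.54% higher. Their log2 fold changes ran from -0.90 to 1.06. The csk copy LOC109046456 had 24.4, 29.2 and 20.8 CPM in lead replicates 1, 2 and 3, against 32.3, 20.3 and 25.6 CPM in control replicates 1, 2 and 3. Counts that were 0 in some libraries of a group and well above 0 in another also occurred there: LOC109046860, described as DDI1 homolog 2-like, had 50 counts in lead replicate 3, 75 in control replicate 3 and 0 in the other 4 libraries.

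Genes of the AhR system, electron donors of P450 enzymes, other P450 genes and conjugating enzymes were taken from lists matched on gene descriptions. The AhR system had 18 tested genes in its receptor list and 12 in its target list. All 7 lists together held 180 genes, of which 101 were tested. edgeR called 0 of them, where it called 0.0591% of all genes tested, so a count of 0 does not show that the lists were unchanged. At an unadjusted p under 0.05, 5 were higher and 13 lower, where 7.54% and 8.77% of all genes were. DESeq2 called 5 of the 101 (2 higher, 3 lower), or 4.95%, against 4.13% of all genes (1.89% higher, 2.23% lower). Of the receptor list, 14 of 18 tested genes had a log2 fold change below 0, and of the electron donors 7 of 12 had one above 0. Of all 32149 genes tested, 16322 were below 0 and 15827 above. edgeR called none of either list, and the median was 0.14 for the donors.

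Of 7 AhR copies, 2 were tested and both had negative log2 fold changes. LOC109055515, listed as ahr2 in RefSeq's carp gene table and the homologue of the main dioxin receptor of zebrafish, had 7.13, 3.19 and 6.68 CPM in lead replicates 1, 2 and 3, against 9.69, 9.85 and 11.1 CPM in control replicates 1, 2 and 3. Each lead library stood below each control library, and the log2 fold change was -0.85 (SE 0.32, edgeR adjusted p = 0.267). Of all genes tested, 12.6% had every lead library below every control library. LOC109104023, described as AhR-like, averaged 7.20 CPM in lead and 11.5 CPM in control brains, and the groups overlapped (log2 fold change -0.67, SE 0.29, edgeR adjusted p = 0.309).

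ARNT and ARNT2 are the nuclear partners of AhR, ARNT2 being the form typical of neurons. Of 6 copies 5 were tested, and their log2 fold changes ran from -1.02 to 0.22. The ARNT2-like copy LOC109062357 averaged 11.6 CPM in lead and 20.6 CPM in control brains (log2 fold change -0.82, SE 0.20, edgeR adjusted p = 0.182; DESeq2 adjusted p = 0.0255). LOC109068970, also ARNT2-like, averaged 2.17 CPM in lead and 4.40 CPM in control brains (log2 fold change -1.02, SE 0.36, edgeR adjusted p = 0.247). LOC109057632 had -0.56, the named arnt2 copy -0.25 and the ARNT copy LOC109087689 had 0.22 (edgeR adjusted p = 0.471, 0.442 and 0.532).

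Of the receptor's chaperones, an HSP90-alpha copy (LOC109053681) averaged 95.5 CPM in lead and 171.1 CPM in control brains (log2 fold change -0.84, SE 0.17, edgeR adjusted p = 0.157; DESeq2 adjusted p = 0.00175). The other HSP90 copies tested had log2 fold changes of 0.24 (LOC109110404), 0.20 (LOC109110413) and -0.24 (hsp90ab1), with edgeR adjusted p = 0.531, 0.689 and 0.447; hsp90ab1 averaged 1316 CPM in lead and 1553 CPM in control brains. All 4 p23 copies were tested, with log2 fold changes from -0.73 to -0.02 and 0 called. Over the list of receptor, partners and chaperones the median log2 fold change was -0.52 for 18 tested of 29 genes, against -0.01 for all 32149 genes tested. Lower at an unadjusted p under 0.05 were 7 of the 18, against 8.77% of all genes. At that threshold 13 of 34 tested neuronal, 7 of 13 astroglial, 6 of 16 oligodendrocyte, 3 of 7 microglial and 2 of 6 pericyte markers were lower too. In these lists 0 were higher. Endothelial markers had 3 of 21 lower and 2 higher, erythrocyte markers 1 of 11 each way, and fibroblast markers 1 of 11 lower. Liver markers had 1 of 3 higher, and ependymal markers 0 of 4 either way. edgeR called 0 markers, and the part of these cells in the receptor list was not tested.

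The AhR repressor, itself a target of the receptor in other vertebrates, had 4 copies, none of which reached the filter. LOC109066178, listed as ahrra in RefSeq's carp gene table, had 0, 27 and 26 counts in lead replicates 1, 2 and 3, against 22, 14 and 12 counts in control replicates 1, 2 and 3. The groups overlapped, with lead replicate 1 the lowest library and lead replicates 2 and 3 the highest. LOC109062781, listed as ahrrb, had 10, 19 and 0 counts in lead replicates 1, 2 and 3, against 17, 16 and 12 counts in the control replicates. LOC109062786 had 0, 18 and 6 counts in the lead replicates, against 4, 0 and 4 counts in the control replicates. Both overlapped between the groups, and LOC109064141 had no count in any library.

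**Figure D4:**
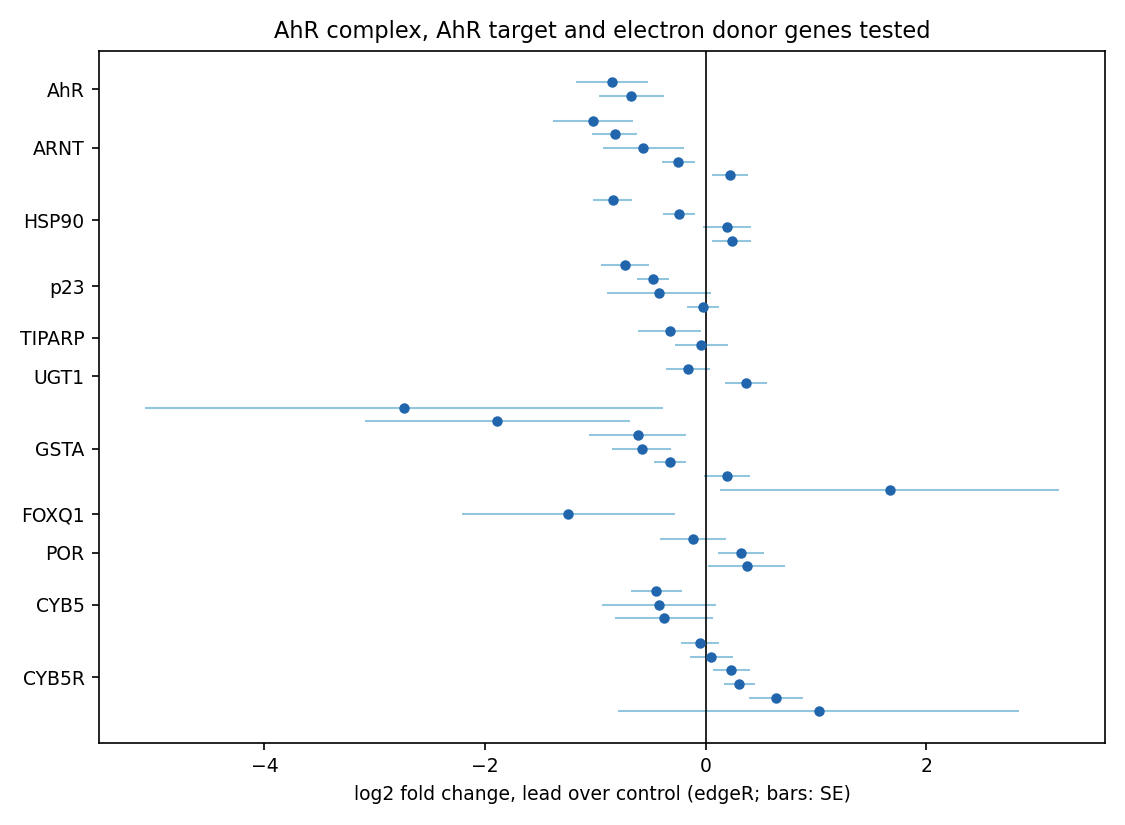
log2 fold change of lead over control for tested genes of the AhR complex, of AhR targets other than CYP1, and of the electron donors of P450 enzymes, with points for gene copies and lines for 1 SE (edgeR). Both AhR copies lie left of 0, at -0.67 and -0.85, and 2 of the 3 NADPH--cytochrome P450 reductase (POR) copies lie right of it; edgeR called none of the genes shown.

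Among AhR targets other than CYP1, copies of forkhead box Q1 (foxq1), a transcription factor gene induced by dioxin in zebrafish, were picked after their values were seen. LOC109113449 had 0.937, 7.06 and 6.25 CPM in lead replicates 1, 2 and 3, against 0.497, 0.368 and 1.09 CPM in control replicates 1, 2 and 3. LOC109045041 had 0.904, 5.28 and 3.42 CPM in the lead replicates, against 0.387, 0.522 and 0.425 CPM in the control replicates. LOC109045042 had 12, 79 and 74 counts in the lead replicates, against 3, 2 and 0 counts in the control replicates.

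In all 3 of these copies lead replicate 1 was the lowest lead library, as it was for CYP1A. It was also the lowest for LOC109100547, the CYP1B copy that was lower in lead brains. The same held for the ARNT copy LOC109057632, at 2.51, 6.27 and 5.43 CPM in lead replicates 1, 2 and 3. For the ahr2 copy LOC109055515 it was the highest lead library. The share of all genes with this order was not computed, so nothing is read from it. LOC109045041 and LOC109045042 had every lead library above every control library, and LOC109113449 overlapped through lead replicate 1. Of all genes with a count in at least 1 library, 8.41% had every lead library above every control library. LOC109113449, LOC109045041 and LOC109045042 all missed the FPKM filter. With edgeR's own filter on low counts, under which 40255 genes were tested and 0.0472% called, their log2 fold changes were 2.88 (SE 0.79), 2.86 (SE 0.67) and 5.19 (SE 1.16), with edgeR adjusted p = 0.231, 0.211 and 0.197. The fourth copy, LOC109062830, had 1.74, 0.0760 and 0.244 CPM in lead replicates 1, 2 and 3, against 1.82, 1.66 and 1.43 CPM in control replicates 1, 2 and 3. It overlapped between the groups, low in the same lead libraries in which the other copies were high.

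**Figure D5:**
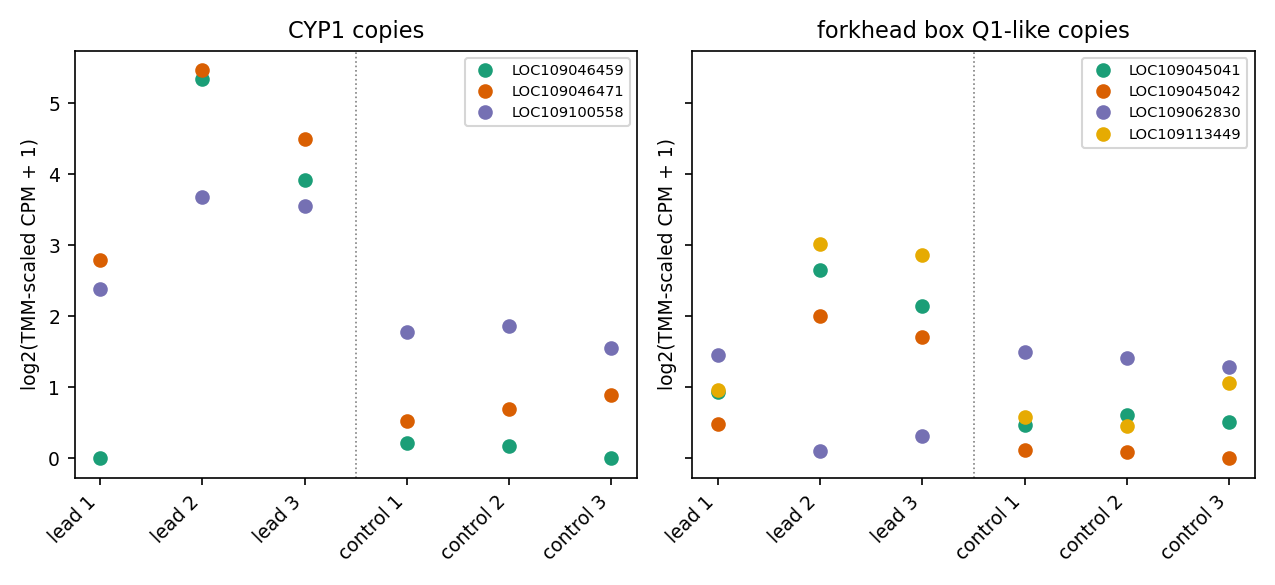
log2(TMM-scaled CPM + 1) by library for 3 CYP1 copies (left) and the 4 foxq1-like copies (right), with lead libraries left of the dotted line and control libraries right of it. LOC109046471, LOC109046459 and 3 of the foxq1-like copies are higher in lead replicates 2 and 3 than in lead replicate 1, while LOC109062830 is lower there. LOC109100547, which is not drawn, is also higher in lead replicates 2 and 3 than in lead replicate 1.

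None of the other targets tested reached an unadjusted p under 0.05. TIPARP, which encodes a mono-ADP-ribosyltransferase that restrains AhR, had 101.1, 159.2 and 83.1 CPM for LOC109109143 in lead replicates 1, 2 and 3, against 131.6, 110.3 and 111.4 CPM in control replicates 1, 2 and 3 (log2 fold change -0.04, SE 0.24, edgeR adjusted p = 0.945). For the other copy, LOC109110100, the log2 fold change was -0.33 (SE 0.29, edgeR adjusted p = 0.598). Of 7 glutathione S-transferase A copies, which conjugate glutathione to electrophiles, 0 were called; their log2 fold changes ran from -2.73 to 1.67, and the 2 of smallest p, LOC109103891 and LOC109103900, had log2 fold changes of -0.32 and -0.58 (edgeR adjusted p = 0.321 and 0.334). The median log2 fold change of the target list was -0.32 over 12 tested of 17 genes, with 0 at an unadjusted p under 0.05 in either direction. Of the 4 foxq1 copies these 12 include only LOC109062830, because the 3 copies with positive log2 fold changes missed the FPKM filter. Under edgeR's own filter LOC109113449, LOC109045041 and LOC109045042 had unadjusted edgeR p of 0.0068, 0.0029 and 0.0021 (edgeR adjusted p = 0.231, 0.211 and 0.197). These copies were picked after their values were seen, so their p-values are a description and do not offset the count of 0. LOC109045042, with 3, 2 and 0 counts in control replicates 1, 2 and 3, passed edgeR's own filter only through the lead libraries. In the main fit, whose filter these copies missed, 16.3% of all genes tested had an unadjusted edgeR p under 0.05. The share under edgeR's own filter is not given here.

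P450 enzymes take electrons from NADPH--cytochrome P450 reductase and from cytochrome b5 with its reductases. The reductase copy LOC109055556 had 55.7, 68.9 and 49.5 CPM in lead replicates 1, 2 and 3, against 58.6, 38.3 and 42.6 CPM in control replicates 1, 2 and 3, and the groups overlapped (log2 fold change 0.32, SE 0.21, edgeR adjusted p = 0.468). LOC109055553 and LOC109058935 had log2 fold changes of 0.37 and -0.11 (edgeR adjusted p = 0.622 and 0.878). The cytochrome b5 reductase 2 copy LOC109109161 averaged 38.5 CPM in lead and 24.8 CPM in control brains (log2 fold change 0.64, SE 0.25, edgeR adjusted p = 0.272). The b5 reductase 3 copy LOC109098580 had 0.31 (SE 0.14, edgeR adjusted p = 0.331).

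Of 56 P450 genes outside family 1, 26 were tested, and edgeR called none. At an unadjusted edgeR p under 0.05, 3 were higher and 4 lower, where 7.54% and 8.77% of all genes tested were. Of all genes, edgeR called 0.0591% and DESeq2 4.13%. Among the 26, DESeq2 called 1. That was LOC109046447, a copy of CYP2U1, a fatty acid hydroxylase found in brain, with 16.2, 18.2 and 19.1 CPM in lead replicates 1, 2 and 3, against 11.1, 11.5 and 11.4 CPM in control replicates 1, 2 and 3 (log2 fold change 0.65, SE 0.17, edgeR adjusted p = 0.184; DESeq2 adjusted p = 0.0293). The CYP3A30-like copy LOC109061483 averaged 2.998 CPM in lead and 6.21 CPM in control brains (log2 fold change -1.05, SE 0.32, edgeR adjusted p = 0.214). The median log2 fold change of the list was -0.28.

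Conjugating enzymes act on what P450 enzymes oxidise, and their lists had medians of -0.18 for glutathione S-transferases, -0.17 for UDP-glucuronosyltransferases and -0.15 for sulfotransferases. The median of glutathione S-transferases was 0.066 without lead replicate 2 and 0.041 without control replicate 1, and that of sulfotransferases was 0.027 without lead replicate 2. Of all genes tested, edgeR called 0.0591% and DESeq2 4.13%. At an unadjusted edgeR p under 0.05, 7.54% of all genes were higher and 8.77% lower. Of 28 glutathione S-transferases tested, edgeR called 0 (at an unadjusted p under 0.05, 1 higher and 1 lower) and DESeq2 called 1. The microsomal transferase LOC109051860 averaged 25.4 CPM in lead and 15.2 CPM in control brains (log2 fold change 0.74, SE 0.20, edgeR adjusted p = 0.197; DESeq2 adjusted p = 0.0474), and the omega copy LOC109100494 had -0.72 (SE 0.27, edgeR adjusted p = 0.259). Of 8 UDP-glucuronosyltransferases tested, 0 were called by either tool and 0 reached an unadjusted edgeR p under 0.05. LOC109109910 had a log2 fold change of -0.75 and LOC109056541 of 0.37 (edgeR adjusted p = 0.344 and 0.377). Of 6 cytosolic sulfotransferases tested, 0 were called by either tool and 1 was lower at an unadjusted p under 0.05. LOC109065719 had a log2 fold change of -1.34 and LOC109053188 of 0.55 (edgeR adjusted p = 0.287 and 0.345). Without control replicate 2 the value of LOC109065719 was -0.49.

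Because brain tissue was sequenced in bulk, fewer cells of a type and less RNA per cell cannot be told apart. The 28 endothelial marker genes summed to 448.7, 366.0 and 436.7 CPM in lead replicates 1, 2 and 3, against 510.7, 355.1 and 425.3 CPM in control replicates 1, 2 and 3, so the groups overlapped. Liver markers, of which 3 of 15 were tested and 4 were at 0 in every library, summed to 147.7 to 181.1 CPM in lead and 109.3 to 132.0 CPM in control brains. Of that sum, LOC109053081, a serotransferrin copy, made up 125.4 to 156.6 CPM in lead and 85.3 to 111.8 CPM in control brains, while 2 vitellogenin copies, a fetuin-B copy and a liver fatty acid-binding protein copy were the ones at 0. The tested apolipoprotein A-I copy LOC109109905 had 0.770, 8.24 and 1.34 CPM in lead replicates 1, 2 and 3, against 1.71, 0.767 and 0.546 CPM in the control replicates. The tested fetuin-B copy LOC109053367 had 19.9, 13.7 and 17.9 CPM in the lead replicates, against 18.1, 18.6 and 22.7 CPM in the control replicates. The highest untested value was 1.75 CPM, of apolipoprotein A-I copy LOC109055542 in lead replicate 2. That copy had 0.234 and 0.854 CPM in lead replicates 1 and 3, against 0.304, 0.123 and 0.152 CPM in the control replicates. LOC109051680, a liver basic fatty acid-binding protein 10-A copy, had 1.71 CPM in lead replicate 3 and 0 in every other library. LOC109074514 and LOC109082100, also untested, had 0 in every lead library and up to 0.414 and 0.221 CPM in the control replicates. Astroglial markers summed to 1820 to 2276 CPM in lead and 2533 to 2783 CPM in control brains, with 7 of 13 tested lower at an unadjusted p under 0.05 and 0 called by edgeR. The part of endothelial cells, liver RNA and astroglia in the CYP1 values was not tested.

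By the root-mean-square difference of log2(CPM + 1) profiles, each centred on its own mean, over the 6 libraries, the informative genes nearest to LOC109046471 were LOC109098115 (0.70), a copy of the clock repressor nr1d1, LOC109079485 (0.82), a copy of mettl21a, and LOC109049892 (0.86), a HARBI1-like gene. The profile of LOC109046471 itself varied by 1.94 around its mean on that scale. Of the 27158 genes compared, LOC109100558 ranked 22 in nearness to it, at 1.13, and LOC109100547 ranked 24742. LOC109046471 and LOC109100558 both passed the FPKM filter only through the lead libraries, and the profiles hold the gap between the groups. The family was chosen with that gap known, so these ranks are a description only. Nearest to LOC109100547 were LOC109062303, an EB1-like microtubule protein gene (0.058), LOC109050700, described as SH3 domain-binding protein 5-like (0.067), and LOC109062214, a prosaposin copy (0.067).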

How the data were processed

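Brain poly(A) RNA libraries, 3 lead and 3 control, were compared. Whole-number counts per gene were deposited without scaling, and the FPKM values are the authors' own, per the file headers. Tools listed in the submitters' processing notes are StringTie 1.3.0, HISAT2 2.0 and Bowtie 0.12.2, with no role stated, beside the build mm8, a mouse build, while the table places genes on carp RefSeq sequences. Strand and multi-copy assignment are not given in the sources used here.

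Counts were fitted with edgeR 4.0.16 in R 4.3.3 (TMM, robust quasi-likelihood) on the 32149 genes that reached an FPKM of 1 in 3 or more libraries, with Benjamini-Hochberg adjustment over all of them and calls under 0.05. CPM are TMM-scaled. DESeq2 1.42.0 and limma 3.58.1 were alternatives. CYP1 members and lists were chosen with earlier results of these data known; ARNT, sulfotransferase and cytochrome b5 patterns were corrected after the descriptions were read, and ahr2, ahrra and ahrrb were added from RefSeq's table (assembly ASM1834038v1), which holds 34840 of the 53152 gene IDs and 5 of the 6 CYP1 IDs. Named were all CYP1 copies; tested copies of AhR, ARNT, TIPARP and the P450 reductase; called genes and the 2 of smallest p of each other list; and the 3 nearest profiles for the CYP1A and CYP1B copy of highest FPKM. Named beyond this, after their values were seen, were the foxq1, AhR repressor, csk and DDI1 copies. UGT1 and glutathione S-transferase A genes count in 2 lists each. Some genes of the receptor list are not reported here. Patterns for NQO1, ALDH3 and NFE2L2 matched no description. No sequence is given because no sequence table was used here.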

Additional observations from a re-analysis of the deposited data

How the results depend on the processing

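Over the scaling, filter, test and leave-one-out alternatives that gave a value, the fitted log2 fold changes of LOC109046471 (2.60 to 5.67), LOC109100558 (0.99 to 2.27) and LOC109100547 (-1.13 to -0.77) kept their sign; the smallest values of LOC109046471 and LOC109100558 came from limma on log2(FPKM + 1), whose pseudocount shrinks low genes by construction. With 1 library left out, the log2 ratio of mean CPM of LOC109080304 (0.16) ran from -0.076 to 0.75, at -0.0068 without lead replicate 3, -0.076 without control replicate 1 and -0.064 without control replicate 3; LOC109058935 ran from -0.31 to 0.12 (0.12 without lead replicate 2), and LOC109109143 from -0.36 to 0.14 (0.045 and 0.14 when lead replicate 1 or 3 was left out, 0.046 without control replicate 1). Copies whose groups do not overlap numbered 4 to 5 of 6 when a library was left out, with 5 without lead replicate 1 or control replicate 2. Leaving out a library can only keep or raise this number. With all 6 libraries, 19.2% of genes with a count in at least 1 library had no overlap in CPM, and nothing is read from these counts. Of the list genes, 0 were called under every alternative run but DESeq2, which called 5. Over all genes edgeR called 19, DESeq2 1324, edgeR with no filter 30, and leave-one-out fits 4 to 25, with 4 without lead replicate 2. Same-numbered libraries had correlations of deviations of 0.17, 0.065 and 0.13. Each control library correlated best with the lead library of its own number. Lead replicates 1 and 3 also correlated best with the control of their number, and lead replicate 2 with control replicate 3. The labels do not say whether the numbers mark pairs, so they were not taken as pairs. With the replicate as a block, edgeR called 0 list genes and 1 gene in all. In the order of mean log2(FPKM + 1) over all 6 libraries LOC109100547 led LOC109046471; all 6 ranks stayed with a pseudocount of 0.1, 4 to 6 when a library was left out (LOC109046471 led without any 1 control library), and 1 in the control libraries alone. The median of all genes was -0.11 with library totals as the only scaling, against -0.01, and that of the receptor list ran from -0.67 to -0.43. Depth limits the control means of LOC109046459, LOC109078707, LOC109046471 and LOC109080304, which rest on 10, 26, 64 and 68 counts. Chosen after seeing the data were the summed subfamilies, FPKM in place of CPM (4 copies without overlap) and the wider set of genes for profile nearness, under which the 3 nearest genes to each copy were the same. The cause of these changes was not tested.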
